A study of Mus musculus with 4 samples.

Results

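The Ly49 receptors, encoded by the Klra genes, were read out from RNA-seq of C57BL/6N mouse splenocytes, the cells of a whole spleen in suspension. Of the 14226 rows of the deposited expression table, 11 carried a symbol made of Klra and a digit, and these 11 rows cover 10 gene symbols because Klra8 has 2 rows. The 4 libraries comprised 2 from vcS5 mice, which carry the transgene with the genotype label vcS5 +/T, and 2 from wild-type (wt) mice. All mice share the C57BL/6N background, and the labels call the 2 samples of each group biological replicates. The vcS5 libraries are also designated line1 in the labels, and age, sex and the promoter of the transgene are not given in the sources used here. The series title names an activating mutation of STAT5, a transcription factor downstream of cytokine receptors, and peripheral T cell lymphoma, so the comparison asks how the spleen transcriptome differs in these transgenic mice.

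Ly49 receptors are C-type lectin-like proteins on the surface of natural killer (NK) cells, of NKT cells and of some memory-type CD8 T cells in mice. Their genes lie side by side in the NK gene complex, and different cells express different members. Inhibitory members bind MHC class I molecules and recruit the phosphatase SHP-1 through a tyrosine motif in the cytoplasmic tail, called an ITIM, while activating members lack this motif and signal through the adaptors DAP12 and DAP10. A pair of members departs from this pattern of expression, as Ly49B (Klra2) is known from myeloid cells and Ly49Q (Klra17) from plasmacytoid dendritic cells.

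The coding starts are shown first because they separate inhibitory from activating members and show how alike the genes are. Each line gives the first 36 coding bases of a GENCODE vM21 transcript, 5′ to 3′, from the minus strand of mouse chromosome 6, with the eighth codon in capitals.
Klra8: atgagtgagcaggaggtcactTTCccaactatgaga
Klra4: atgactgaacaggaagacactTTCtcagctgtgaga
Klra7: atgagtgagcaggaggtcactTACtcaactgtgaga
Klra10: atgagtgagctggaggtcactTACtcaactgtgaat
Klra9: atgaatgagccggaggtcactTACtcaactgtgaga
Klra3: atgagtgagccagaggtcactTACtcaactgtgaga
Klra5: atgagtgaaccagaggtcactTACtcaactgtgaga
Klra6: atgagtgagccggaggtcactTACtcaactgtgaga
Klra1: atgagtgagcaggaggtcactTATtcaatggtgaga
Klra17: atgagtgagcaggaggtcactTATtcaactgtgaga
Klra2: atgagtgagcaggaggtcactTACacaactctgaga
The eighth codon encoded tyrosine (TAT or TAC) in 9 of the 11 coding genes and phenylalanine (TTC) in the other two, Klra8 and Klra4. This tyrosine is the one of the ITIM. Klra8 encodes Ly49H, the activating receptor for the mouse cytomegalovirus protein m157, and Klra4 encodes Ly49D, an activating receptor that binds H-2Dd.

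Across the 55 pairs of coding genes, 73.3% to 96.9% of aligned coding bases were identical. Klra3, Klra9 and Klra10 were the closest, with 95.9% identity between Klra3 and Klra9, 96.2% between Klra3 and Klra10 and 96.9% between Klra9 and Klra10. Klra8 was 91.9% identical to Klra9, whereas Klra7 was 77.9% identical to Klra8 and had its best match in Klra1 at 88.04%. Klra2 stood apart, with no match above 76.7%.

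**Figure D1:**
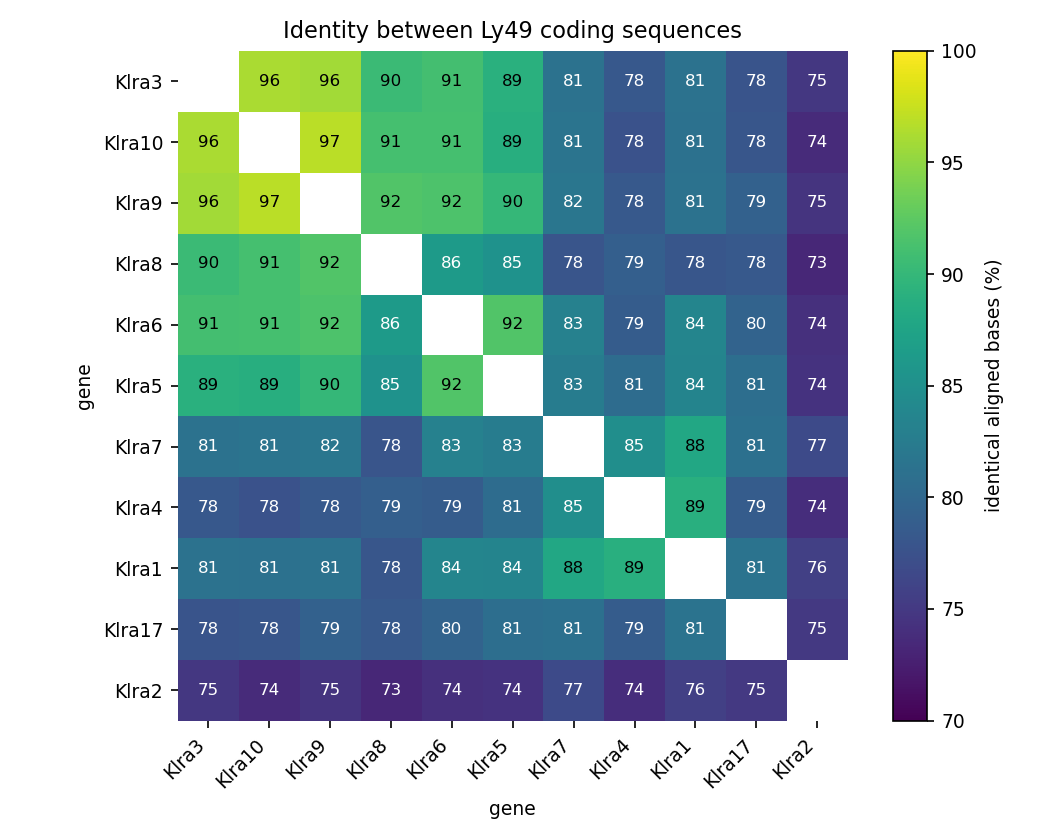
Percentage of identical aligned coding bases for each pair of the 11 Ly49 coding genes of GENCODE vM21; both axes list the genes and the colour runs from 70% to 100%. Klra3, Klra10 and Klra9 form the block of highest identity, at 95.9% to 96.9%, and Klra2 reaches at most 76.7% with any other gene.

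Reads in this study were 50 bases long. The share of 50-base windows that occur exactly in another gene's transcripts shows which rows have such sequence in common. In Klra10, 39.8% of the windows occurred elsewhere, and the share was 33.1% in Klra8, 31.5% in Klra9 and 20.7% in Klra3. The largest single overlap of Klra8 was with the pseudogene Klra14-ps, at 20.4% of the Klra8 windows. In Klra7, 12.3% were shared, all with the pseudogene Klra13-ps. Klra4, Klra1, Klra6 and Klra5 shared 4.68%, 2.98%, 2.62% and 0.656% of their windows. None of the 1898 windows of Klra2 and none of the 1188 windows of Klra17 occurred in another gene. By exact matches, Klra5, Klra6, Klra1, Klra2 and Klra17 therefore have almost only windows of their own. The values of Klra8, Klra9, Klra10 and Klra3 are uncertain as separate values. Windows that differ by few bases were not counted, and Klra5 and Klra6, for example, are identical in 91.85% of aligned coding bases.

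The rows also share positions in the table. On mm10 chromosome 6, 5 Klra rows carried 1 common locus of 130043731 to 130308376, minus strand, together with 2 rows that had no symbol. The 5 rows are Klra7, both Klra8 rows, Klra10 and Klra9. Of the other two, 1 carries the identifier of Klra14-ps and 1 has no identifier. The Klra7 row lists the identifiers of both Klra7 and Klra4, so Ly49D has no row of its own and its expression cannot be told apart from that of Ly49G. The second Klra8 row also lists Gm22621, a small nuclear RNA gene inside the locus. In the reference annotation the locus holds the separate genes Klra4, Klra11-ps, Klra8, Klra14-ps, Klra9, Klra7, Klra10 and Klra13-ps, in ascending coordinates. The remaining 6 Klra rows had loci of their own.

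Ly49 expression was higher in vcS5 spleens. Values are FPKM, fragments scaled to transcript length and to the mapped total of the library and so can be set side by side between genes. Summed over the 11 rows, Ly49 expression was 478 and 355 FPKM in the 2 vcS5 libraries, against 110 and 87.4 FPKM in the 2 wt libraries, a ratio of means of 4.23. In the limma test of every row on log2(FPKM + 1), 7 of the 11 Klra rows rose at an adjusted p under 0.05 and 0 fell. The rises numbered 5 with the replicate number as a block, 1 without vcS5 replicate 1, and 2 without each of the other three libraries in turn. Of all rows, 4.59% rose and 4.13% fell by the same rule, 8.72% together. Among the lower Klra rows, 1 had an unadjusted limma p under 0.05, as did 3595 of all 14226 rows in either direction. The authors' deposited table gave unadjusted p-values of 0.0407 for Klra1, 0.02475 for Klra2 and 0.04625 for Klra17. By the authors' q 0 of the lower Klra rows passed, while 6.14% of all rows were lower. The median log2 change was 1.12 over the Klra rows and 0.001 over all rows. In a bulk sample, more cells that express a receptor and more RNA per cell cannot be told apart.

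**Figure D2:**
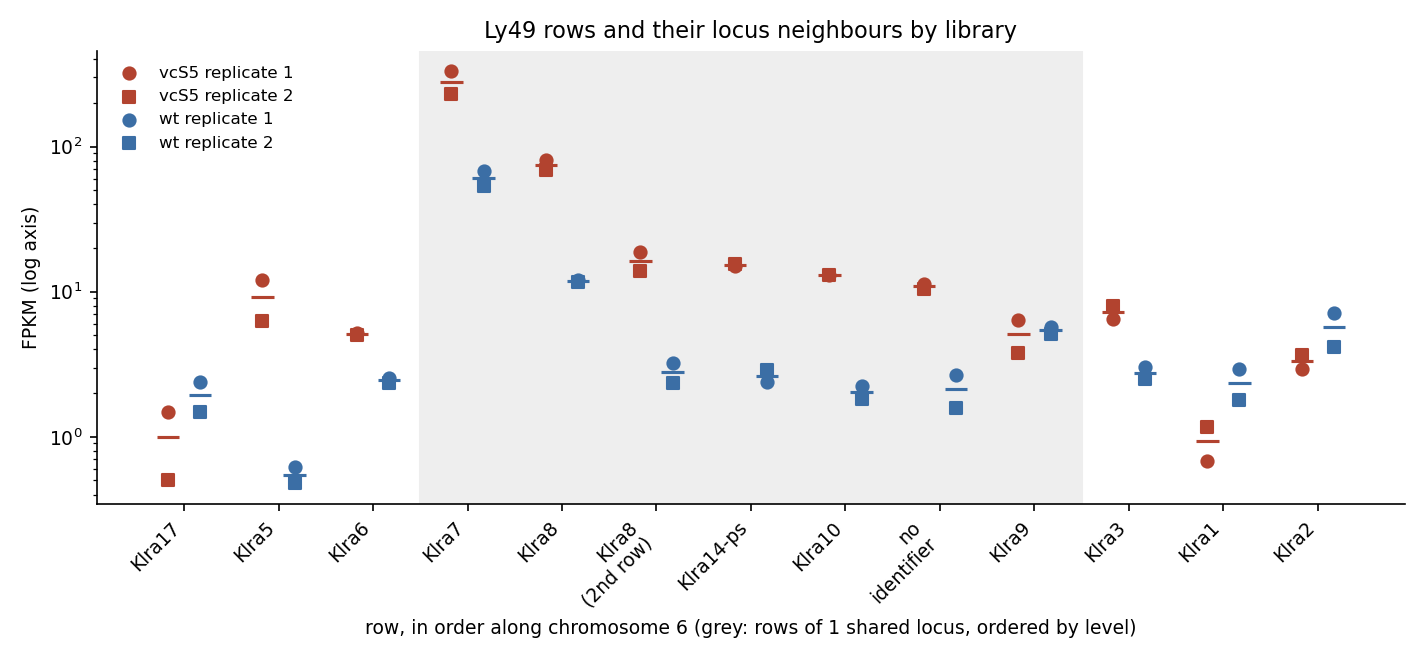
FPKM on a log axis of the 11 Klra rows and the 2 further rows of the shared locus, whose 7 rows stand on a grey band, with circles and squares for replicates 1 and 2, bars for group means, and vcS5 (red) left of wt (blue). The vcS5 libraries lie above the wt libraries in Klra5, Klra6, Klra7, both Klra8 rows, Klra10 and Klra3, overlap with them in Klra9 and lie below them in Klra17, Klra1 and Klra2.

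Klra8, the activating Ly49H, had 80.8 and 68.6 FPKM in vcS5, against 12.1 and 11.8 FPKM in wt. All values in vcS5 were several times those in wt, and the spread within each group was small beside that gap. The means were 74.7 ± 8.66 FPKM in vcS5 and 11.9 ± 0.214 FPKM in wt (SD, n = 2 each), 6.27-fold higher in vcS5, and the limma log2 change was 2.55 with SE 0.146 (adjusted p = 0.00221). Klra8 was the Klra row whose call held in every fit that left out 1 library, with adjusted p-values of 0.0307 to 0.0403 by limma. The second Klra8 row had 18.8 and 14.0 FPKM in vcS5 and 3.25 and 2.36 FPKM in wt (limma log2 change 2.19 with SE 0.216, adjusted p = 0.00958). Its fold of 5.85 was close to that of the first row, while the authors' deposited table gave it a q of 0.359. Its call ended whichever library was left out (adjusted p 0.0532 to 0.0777 by limma).

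Klra7 encodes Ly49G, an inhibitory receptor that binds H-2Dd, and its row, which includes Klra4, was the most abundant Ly49 row in all 4 libraries. It had 331 and 231 FPKM in vcS5, against 67.9 and 53.5 FPKM in wt. The vcS5 replicates differed more than the wt replicates, and both lay far above either wt library. The means were 281 ± 70.4 FPKM in vcS5 and 60.7 ± 10.1 FPKM in wt (SD, n = 2 each), 4.63-fold higher in vcS5 (limma log2 change 2.18 with SE 0.234, adjusted p = 0.0113). With 1 library left out, the adjusted p ran from 0.0663 to 0.0749 by limma, so this call needs all 4 libraries. The row took 69.1% and 65.1% of the summed Klra FPKM in vcS5 and 61.8% and 61.2% in wt.

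Klra10, the gene of Ly49J, rose to 13.1 FPKM in both vcS5 libraries, against 2.25 and 1.81 FPKM in wt. The fold of 6.45 was close to that of Klra8, and the limma log2 change was 2.22 with SE 0.161 (adjusted p = 0.00424). In the authors' deposited table Klra10 had a q of 0.474. Without vcS5 replicate 1 or vcS5 replicate 2 its adjusted p was 0.0673 and 0.0770 by limma. Of its 50-base windows, 21.5% are also in Klra9 and 15.4% in Klra3.

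Klra9 and Klra3 encode the inhibitory receptors Ly49I and Ly49C, both known to bind H-2Kb, the class I molecule of this mouse strain. Klra9 was the row of the shared locus that did not pass the test. It had 6.43 and 3.77 FPKM in vcS5, against 5.74 and 5.12 FPKM in wt, and the groups overlapped. The limma log2 change was -0.11 with SE 0.253 (adjusted p = 0.845), and it was 0.21 without vcS5 replicate 2. Klra3 had 6.46 and 7.95 FPKM in vcS5 and 3.03 and 2.51 FPKM in wt, without overlap, and was 2.60-fold higher in vcS5 (limma log2 change 1.12 with SE 0.184, adjusted p = 0.0291). With the replicate number as a block its adjusted p was 0.0603 by limma, and with 1 library left out 0.0989 to 0.158. The ratio of Klra9 to Klra8 within a library was 0.0796 and 0.0549 in vcS5, against 0.475 and 0.435 in wt, and its ratio to Klra3 was 0.996 and 0.474 in vcS5, against 1.89 and 2.04 in wt. Neither ratio overlapped between the groups, and with 2 libraries a group an exact permutation test cannot go below a two-sided p of 0.333.

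Klra5, the gene of Ly49E, a receptor of fetal NK cells and of some gamma delta T cells, had the largest fold of the family. It had 12.1 and 6.31 FPKM in vcS5, against 0.617 and 0.480 FPKM in wt. The wt values were the lowest of any Klra row, and the vcS5 replicates lay far apart. All rows of the deposited table have a mean FPKM above 1, which Klra5 reached only through its vcS5 values. The ratio of means was 16.7, with 9.18 ± 4.06 FPKM in vcS5 and 0.549 ± 0.0971 FPKM in wt (SD, n = 2 each). The limma log2 change was 2.66 with SE 0.312 (adjusted p = 0.0137). Without vcS5 replicate 1, wt replicate 1 or wt replicate 2 the adjusted p was 0.0688, 0.0753 and 0.0792 by limma. Klra6, the gene of Ly49F, which marks Ly49-positive regulatory CD8 T cells in mice, had 5.16 and 4.997 FPKM in vcS5, against 2.53 and 2.36 FPKM in wt. Its replicates were close together in both groups, and the fold was 2.07 (limma log2 change 0.82 with SE 0.162, adjusted p = 0.0454). The call of Klra6 ended with the block (adjusted p = 0.0682 by limma), with scaling to the FPKM outside the 10 most abundant rows (0.0794) and whichever library was left out (0.159 to 0.180).

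**Figure D3:**
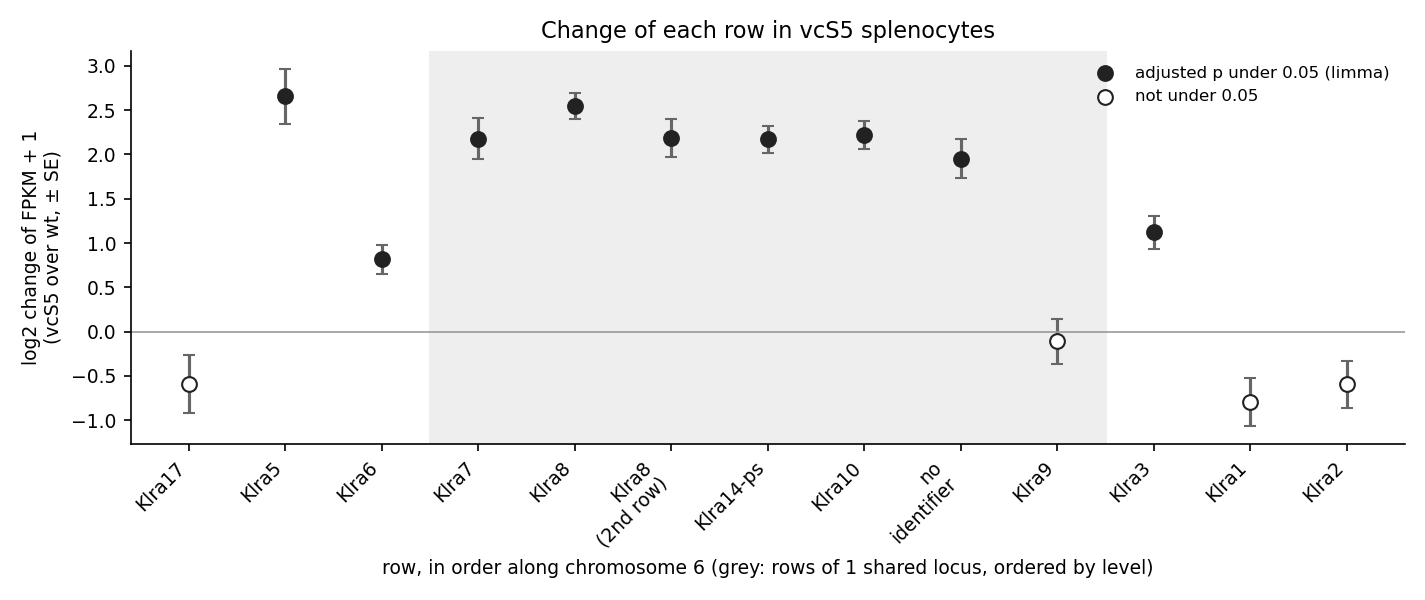
Log2 change of FPKM + 1 in vcS5 over wt with its standard error from limma, for each Klra row and the 2 further rows of the shared locus, whose 7 rows stand on a grey band; filled points had an adjusted p under 0.05. Filled points run from 0.82 for Klra6 to 2.66 for Klra5, and the open ones are Klra9 at -0.11, Klra17 at -0.59, Klra2 at -0.60 and Klra1 at -0.79.

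The remaining 3 rows lay lower in both vcS5 libraries than in both wt libraries and did not pass the test. Klra1, the gene of Ly49A, an inhibitory receptor for H-2Dd, had 0.680 and 1.18 FPKM in vcS5, against 2.92 and 1.80 FPKM in wt (limma log2 change -0.79 with SE 0.271, adjusted p = 0.152). Klra2, the gene of the myeloid Ly49B, had 2.95 and 3.68 FPKM in vcS5, against 7.17 and 4.19 FPKM in wt (log2 change -0.60, adjusted p = 0.246 by limma). Klra17, the gene of Ly49Q of plasmacytoid dendritic cells, had 1.47 and 0.507 FPKM in vcS5, against 2.39 and 1.49 FPKM in wt (log2 change -0.59, adjusted p = 0.339 by limma). The nearest libraries of the groups almost met in Klra17. Counted over the family, 7 rows had both vcS5 libraries above both wt libraries, 3 had them below and 1 overlapped. Of all rows, 26.9% lay wholly above and 27.5% wholly below.

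The 2 rows of the shared locus that are no family members by symbol rose by limma, unlike Klra9 of the same locus. The Klra14-ps row had 15.1 and 15.6 FPKM in vcS5, against 2.40 and 2.87 FPKM in wt (5.82-fold, log2 change 2.17, adjusted p = 0.00397 by limma). The row without an identifier had 11.3 and 10.5 FPKM in vcS5, against 2.67 and 1.58 FPKM in wt (5.13-fold, log2 change 1.95, adjusted p = 0.0127 by limma). The authors' deposited table gave them a q of 0.393 and 0.560, and both limma calls ended without vcS5 replicate 1 or vcS5 replicate 2, that of the row without an identifier also without wt replicate 2. Summed over all 7 rows of the locus, expression was 476 and 356 FPKM in vcS5, against 96.2 and 79.0 FPKM in wt. Summed over the 6 Klra rows with loci of their own it was 28.8 and 24.6 FPKM in vcS5, against 18.7 and 12.8 FPKM in wt. The sum over the shared locus was 4.75-fold higher in vcS5 and that over the separate loci 1.70-fold.

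The make-up of the family differed between the groups beside its level. The first Klra8 row took 16.9% and 19.3% of the summed Klra FPKM in vcS5 and 10.99% and 13.5% in wt. Klra9 took 1.34% and 1.06% in vcS5 and 5.22% and 5.85% in wt. Klra2 took 0.617% and 1.04% in vcS5 and 6.53% and 4.79% in wt. These shares are descriptions of 2 libraries a group and depend on how reads common to several genes were divided. By the q-values of the authors' deposited table, Klra5, Klra7, Klra8 and Klra3 were higher at the 0.05 threshold, 4 of 11 Klra rows against 5.31% of all rows, and Klra6 had a q of 0.0597.

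Promoter windows of the family were searched because the series title names a STAT factor and several members rose. Windows of 250 bases before to 50 bases after the gene start were taken from RefSeq on GRCm38.p6, and 13 windows matched 11 Klra genes. The STAT motif TTCNNNGAA, which reads the same on both strands, was in 3 of the 13 windows and in 8.30% of all 32851 windows. The windows that hold it follow, with each match in capitals, and belong to Klra7 and Klra10, which rose, and to Klra2, which did not pass the test.
Klra7 (chr6:130231638-130231937, minus strand): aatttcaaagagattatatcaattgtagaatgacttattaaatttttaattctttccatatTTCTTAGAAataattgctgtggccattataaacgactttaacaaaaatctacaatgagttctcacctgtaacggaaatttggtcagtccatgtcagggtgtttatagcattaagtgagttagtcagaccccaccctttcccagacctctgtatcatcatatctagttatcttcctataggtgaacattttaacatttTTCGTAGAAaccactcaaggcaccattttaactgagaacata
Klra10 (chr6:130281879-130282178, minus strand): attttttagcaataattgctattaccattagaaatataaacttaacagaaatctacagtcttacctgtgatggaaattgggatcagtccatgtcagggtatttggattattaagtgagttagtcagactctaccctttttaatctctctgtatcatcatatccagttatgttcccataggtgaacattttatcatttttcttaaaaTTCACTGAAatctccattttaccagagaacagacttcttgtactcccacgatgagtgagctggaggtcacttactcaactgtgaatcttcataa
Klra2 (chr6:131247313-131247612, minus strand): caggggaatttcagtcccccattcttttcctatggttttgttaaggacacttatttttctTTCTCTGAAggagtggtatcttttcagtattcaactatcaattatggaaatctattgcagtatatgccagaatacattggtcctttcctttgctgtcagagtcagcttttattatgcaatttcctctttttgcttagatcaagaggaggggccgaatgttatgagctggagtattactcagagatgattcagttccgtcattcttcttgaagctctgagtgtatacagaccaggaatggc
The Klra7 window holds 2 matches, which start at base -189 and at base 8 relative to the gene start, and the second Klra7 window holds none. The match of Klra10 starts at base -44 and that of Klra2 at base -190. The form with a spacer of 4 bases was in 0 Klra windows and in 6.95% of all windows. The windows of Klra8 held neither form. A match is no evidence of binding, and its absence concerns these 300 bases only.

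Motifs of other factors known from NK and T cells were searched on both strands in the same windows. The TCF/LEF motif CTTTGAT was in 2 windows, of Klra6 and Klra7, and in 3.73% of all windows, and CTTTGAA was in 1 window, of Klra7, and in 5.14% of all. The RUNX motif TGTGGT was in the window of Klra1 and in 16.8% of all, and TGCGGT was in 0 Klra windows and 6.45% of all. The T-box motif AGGTGTGA and the ETS motif GAGGAAGT were in 0 Klra windows, against 1.28% and 3.20% of all. No matches of different motifs overlapped in the Klra windows. The windows share sequence of their own. The strings given next were picked from these Klra windows by length and number of windows, so their counts there are no test. The string AGGAGGGGCAGAAAA was in 8 of the 13 Klra windows and in 9 of all 32851 windows, and GCAATTTCCTCTTTT was in 8 and in 10. Klra3, Klra4, Klra6, Klra8, Klra9 and Klra17 hold both strings, Klra5 the first and Klra2 the second, so the strings occur in members that rose and in members that did not pass the test.

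Signalling partners of the receptors moved in both directions. Of 13 genes, 3 rose and 4 fell, with a median log2 change of -0.23. For this list and those below, the shares over all rows were 4.59% for rises and 4.13% for falls. The lists were chosen with earlier results of these data known, so their counts are descriptions. Hcst, the gene of DAP10, had 176 and 171 FPKM in vcS5, against 59.8 and 68.6 FPKM in wt (limma log2 change 1.42 with SE 0.145, adjusted p = 0.0106). Tyrobp, the gene of DAP12, on which Ly49H and Ly49D depend for surface expression, had 73.1 and 76.2 FPKM in vcS5, against 198 and 141 FPKM in wt (limma log2 change -1.16 with SE 0.202, adjusted p = 0.0333). The adaptors thus changed in opposite directions, and DAP12 is also expressed by myeloid cells. The kinase gene Zap70 (1.21) and the phospholipase gene Plcg1 (1.07) rose while the kinase gene Syk fell (-1.43), as did Plcg2 (-1.22) and the Fc receptor gamma chain gene Fcer1g (-1.10). With the replicate block Tyrobp and Fcer1g had adjusted p-values of 0.0519 and 0.0604 by limma. The count of falls was then 2, and all 7 calls of this list ended whichever library was left out. Ptpn6, the gene of SHP-1, had a log2 change of -0.23 and did not pass.

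Genes of the class I ligands and their assembly showed no change that passed the test. Of 9 genes, 0 rose and 0 fell by limma, 0 had an unadjusted p under 0.05, and the median log2 change was 0.16. H2-K1, which encodes H-2Kb, had 1883 and 2325 FPKM in vcS5, against 1453 and 1733 FPKM in wt (log2 change 0.40, adjusted p = 0.390 by limma). H2-D1, which encodes H-2Db, had 1326 and 1603 FPKM in vcS5, against 1264 and 1321 FPKM in wt (log2 change 0.17, adjusted p = 0.693 by limma), and changed sign with quantile normalization (-0.14).

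Other lectin receptors of the NK gene complex moved in both directions. Of 16 genes measured, 4 rose, 3 fell and 9 did not pass, with a median log2 change of -0.06. The gene of CD94 and genes of its NKG2 partners were among those that rose, with Klrd1 at 133 and 139 FPKM in vcS5, against 59.1 and 48.5 FPKM in wt (log2 change 1.33, adjusted p = 0.0140 by limma), Klrc1 at a log2 change of 1.77 and Klrc2 at 1.79. The NKG2 gene Klrc3 did not pass (log2 change 0.59, adjusted p = 0.167 by limma). Klre1, which is no NKG2 gene, rose by 1.31. The Klrc1 row includes Klrc2. Without wt replicate 1, 1 gene of the list rose, and 0 rose without each of the other three libraries in turn. Klrk1, the gene of the activating receptor NKG2D, had 44.6 and 33.95 FPKM in vcS5, against 27.3 and 23.4 FPKM in wt, and did not pass (adjusted p = 0.124 by limma). Those that fell included genes of NKR-P1 receptors, with Klrb1b at 0.132 and 0.201 FPKM in vcS5, against 3.22 and 3.19 FPKM in wt (log2 change -1.85, adjusted p = 0.0118 by limma) and Klrb1a at a log2 change of -1.58, and the third was Klri2 at -1.20. Klrb1a had an adjusted p of 0.0532 by limma with the block. The falls numbered 0 whichever library was left out, and 0 among genes with a mean FPKM of at least 5. Klrb1c, the gene of the NK1.1 antigen, had 8.12 and 5.62 FPKM in vcS5, against 11.9 and 13.9 FPKM in wt, and did not pass (log2 change -0.84, adjusted p = 0.0757 by limma).

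NK cell markers moved in both directions. Of 11 markers, 3 rose and 4 fell (median log2 change -0.84), and their summed level was 323 and 323 FPKM in vcS5, against 464 and 379 FPKM in wt. Most of this sum in wt came from Tyrobp (198 and 141 FPKM) and Fcer1g (129 and 104 FPKM). The other markers together were higher in both vcS5 libraries, so the sum does not show a fall of NK markers as a set. Ncr1, the gene of NKp46, a receptor of nearly all mouse NK cells, had 0.635 and 0.776 FPKM in vcS5, against 13.7 and 15.1 FPKM in wt (limma log2 change -3.17 with SE 0.165, adjusted p = 0.00161). Ncr1 was thus near 0 in both vcS5 libraries, in which the Klra8 row was 127 and 88.4 times the Ncr1 row, against 0.882 and 0.780 times in wt. Cd244 fell too (-1.08). The markers that rose were S1pr5 (2.38), Eomes (2.20) and the perforin gene Prf1 (1.78), which effector CD8 T cells also express. Eomes stands in the memory CD8 list as well, and Tyrobp and Fcer1g, which fell, stand among the signalling partners. With the replicate block 1 marker fell in place of 4. With each library left out only Ncr1 fell, and 0 markers rose without vcS5 replicate 1 or vcS5 replicate 2.

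CD8 T cell markers were higher in vcS5. Of 8 markers, 5 rose and 0 fell (median log2 change 1.55), and the summed level was 2339 and 2895 FPKM in vcS5, against 563 and 767 FPKM in wt. Cd8a had 391 and 445 FPKM in vcS5, against 51.1 and 62.9 FPKM in wt, a fold of 7.33 (limma log2 change 2.86 with SE 0.174, adjusted p = 0.00259), and Cd8b1 (2.78), Thy1 (2.15), Cd3d (1.66) and Cd3e (1.44) rose too. Only Cd8a and Cd8b1 encode CD8 chains, while Thy1, Cd3d, Cd3e and the rest of the list are expressed by other T cells too. The ratio of Klra8 to Cd8a within a library was 0.207 and 0.154 in vcS5, against 0.236 and 0.187 in wt, and the ratio of Klra7 to Cd8a was 0.846 and 0.519 in vcS5, against 1.33 and 0.851 in wt. The Klra8 ratios overlapped between the groups, and the Klra7 ratios almost met, at 0.846 in vcS5 replicate 1 and 0.851 in wt replicate 2. For Klra5 this ratio was 0.0308 and 0.0142 in vcS5, against 0.0121 and 0.00763 in wt, and for Klra9 it was 0.0165 and 0.00847 in vcS5, against 0.112 and 0.0813 in wt. Whether the Ly49 RNA comes from CD8 T cells was not tested.

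Markers of memory-type CD8 T cells, the T cells best known for Ly49 expression, showed 8 rises and 0 falls among 10 genes (median log2 change 2.16). Il2rb, the receptor chain for interleukin 2 and interleukin 15, had 276 and 331 FPKM in vcS5, against 69.8 and 67.3 FPKM in wt (limma log2 change 2.12 with SE 0.158, adjusted p = 0.00470). The chemokine gene Ccl5 changed by 3.26, Nkg7 by 2.38 and Ly6c2 by 2.32, and the Ly6c2 row also lists the identifier of a further gene. Cd44 did not pass, at 49.7 and 47.8 FPKM in vcS5 and 48.7 and 41.4 FPKM in wt. Among transcription factor genes of Ly49-bearing lymphocytes, 5 of 15 rose and 0 fell. They were Eomes (2.20), Gata3 (1.62), Tbx21 (1.48), Id2 (1.25) and Tcf7 (1.21), the gene of TCF-1, which is required for Ly49A expression in mouse NK cells. The Gata3 row also lists the identifier of a further gene. With the block Gata3 had an adjusted p of 0.0527 by limma, and 1 factor or 0 rose with any library left out. Without vcS5 replicate 2, 0 of the CD8 and 0 of the memory markers passed, and without vcS5 replicate 1 it was 1 and 2. Without wt replicate 1, 2 CD8 markers passed.

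**Figure D4:**
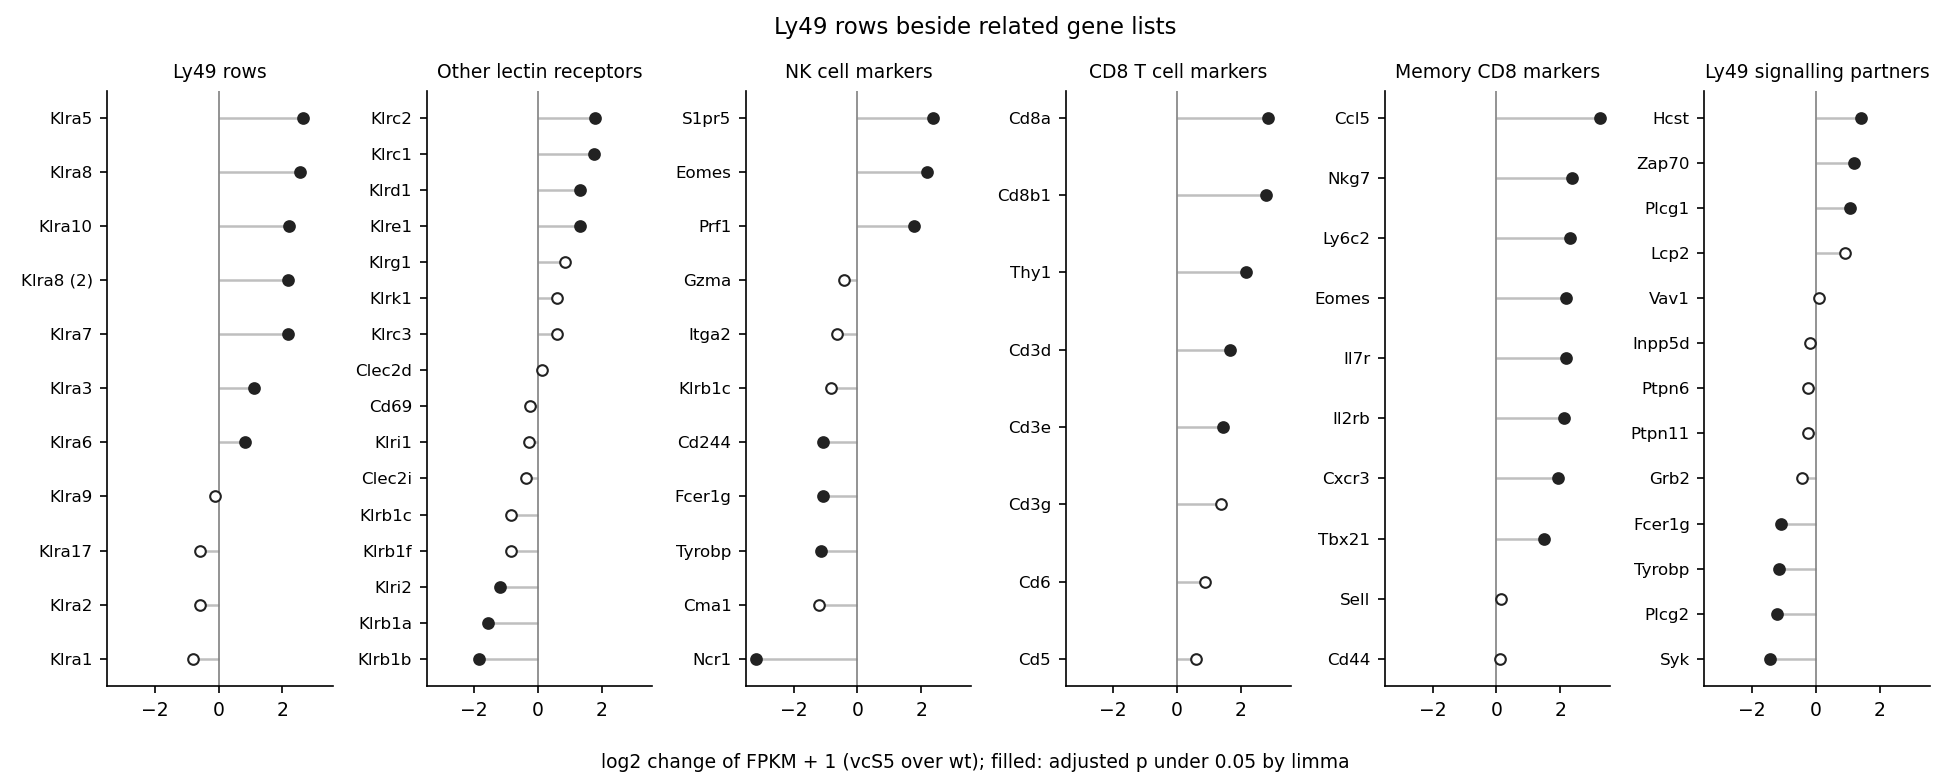
Log2 change of FPKM + 1 in vcS5 over wt for the 11 Klra rows and 5 related gene lists, each in a panel with genes ordered by change; filled points had an adjusted p under 0.05 by limma. The Klra panel reaches from -0.79 to 2.66, every CD8 marker lies above 0, and the NK panel reaches from 2.38 for S1pr5 to -3.17 for Ncr1.

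Markers of the cells known for Ly49B and Ly49Q were tested beside Klra2 and Klra17. Of 6 plasmacytoid dendritic cell markers, 3 fell (Siglech, Tcf4 and Ccr9, at -1.03, -1.20 and -0.91) and 1 rose (Runx2, at 1.49), and their summed level was 96.5 and 110 FPKM in vcS5, against 105 and 118 FPKM in wt. With the replicate block 1 of the falls passed, and no call of this list held with any library left out. Of 8 monocyte and granulocyte markers, Lyz2 and Csf3r fell, at -1.34 and -1.04, and 0 rose. Lyz2 had an adjusted p of 0.0509 by limma with the block, which leaves 1 fall, and 0 passed without vcS5 replicate 1, vcS5 replicate 2 or wt replicate 1. Their summed level was 1027 and 984 FPKM in vcS5, against 5518 and 1861 FPKM in wt, and wt replicate 1 was the highest library here as in Klra2. Most of that sum in each library came from S100a8 and S100a9, which did not pass (adjusted p 0.191 and 0.0898 by limma). S100a8 alone had 2932 FPKM in wt replicate 1 and 714 FPKM in wt replicate 2. Cd14 had 1.70 and 3.45 FPKM in vcS5 and 5.99 and 3.50 FPKM in wt. The part of cell numbers in the Klra2 and Klra17 values was not tested.

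Among other lymphocytes, all 7 B cell markers fell (median log2 change -1.41), among them Cd79a (-1.46). Without wt replicate 2, 1 B cell marker passed, and 0 passed without each of the other three libraries in turn. The NKT list had 1 of 4 measured markers higher (Cxcr6, at 1.12) and 1 lower (Cd1d1, at -0.93), and B cells and antigen-presenting cells express Cd1d1 too. Of 5 gamma delta T cell markers, Cd163l1 (4.14) and Sox13 (1.33) rose, and Tcrg-C2 (-5.96) and Blk (-1.41), which B cells also express, fell. Sox13 had 2.75 and 3.63 FPKM in vcS5, against 0.624 and 0.685 FPKM in wt. It reached a mean FPKM above 1 only through its vcS5 values. The genes Trdc, Tcrg-C1, Tcrg-C4, Zbtb16 and Il4 of these lists were not analysed here. With the block the counts were 0 for the NKT fall and 1 for the gamma delta rises. With any library left out, 0 NKT markers passed, 1 gamma delta marker rose, and 0 to 1 fell.

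The rows most like the summed Klra profile were found by the root mean square distance between log2(FPKM + 1) values centred on the wt mean, over 4 libraries. The nearest was Ddc, the gene of aromatic L-amino acid decarboxylase, with 12.6 and 9.93 FPKM in vcS5, against 2.08 and 1.364 FPKM in wt, and a distance of 0.0932. Atp8b4, Ms4a4b, Smpdl3b and Rnf125 followed at 0.157, 0.165, 0.166 and 0.185. Of these, Ms4a4b, a membrane protein gene of T and NK cells, was the most abundant, with 976 and 954 FPKM in vcS5, against 250.04 and 231 FPKM in wt. With 4 libraries in 2 groups such a distance mainly ranks genes by the size of their change.

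Over the whole table, median FPKM per library was 12.2 to 12.6. The most frequent ratio of low values put the worth of 1 read in wt replicate 1 at 0.831 to 0.901 of that in the other three libraries, a mode held by only 24 to 42 of 1959 low rows. The absolute number of reads is not known from FPKM values, and no counting interval is given. Of all rows, 1241 passed the test.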

How the data were processed

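RNA from flash-frozen spleen cell suspensions went into TruSeq v2 libraries, which do not mark strand, and was read as 50-base single ends, per the labels' protocols and the series design. The authors deposited FPKM per library and per group, with a p-value and q-value, per the file headers. The submitters' processing notes name mm10 with Bowtie2 2.1.0, Cuffdiff 2.1.1, Cufflinks and TopHat2 2.0.9. The sources used here do not state how reads common to several genes were divided. Every row had a mean FPKM above 1, so the planned filter removed none. Rows with a mean under 1 FPKM in a group are therefore present through the other group. Among them are Klra5 and Sox13, low in wt, and Klra1, Klra17, Ncr1, Klrb1a and Klrb1b, low in vcS5.

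Values were transformed as log2(FPKM + 1), which understates changes of low rows, and compared with limma 3.58.1 in R 4.3.3 (variance trend, all 4 libraries, no covariate, two-sided, Benjamini-Hochberg over 14226 rows, threshold 0.05). The fit was tested on simulated data. Folds are ratios of mean FPKM. Alternatives were quantile normalization, a pseudocount of 0.1, a mean FPKM of at least 5, no filter, no variance trend, another library scaling, a replicate block and each library left out. Sequences came from GENCODE vM21 and RefSeq GRCm38.p6, builds of mm10, and deposited starts were made 1-based. The members and the 12 lists, of which 112 of 119 entries were measured, were chosen with earlier results of these data known. Named were all Klra rows, of each list the first 2 genes and up to 4 further ones past the threshold by size of change, and the 5 rows most like the summed Klra profile. Ptpn6, Plcg1, Klre1, Klri2, Klrc3, Cd244, S100a8 and S100a9 were named after their values were seen. Some genes that the rule names, mostly B cell markers, are covered only by their list's counts, and 1 is not reported here by name.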

Additional observations from a re-analysis of the deposited data

How the results depend on the processing

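The number of Klra rows that rose, 7 of 11, was 7 with quantile normalization, a pseudocount of 0.1, no filter and no variance trend, 6 with the other library scaling, and 4 with a mean FPKM of at least 5, where 5 Klra rows were left to test. Labels give no reason to pair equal replicate numbers. The difference of replicate 1 and 2 correlated at 0.18 between the groups over rows, and with the replicate number as a block 5 Klra rows rose and 1028 rows of the table passed. With 1 library left out, 1 to 2 Klra rows rose and 71 to 245 rows passed, against 7 and 1241 with all 4, and the falls stayed at 0. The summed Klra ratio of 4.23 ran from 3.60 to 4.85, and was 3.40 over rows naming 1 gene. Klra9 ran from -0.43 to 0.21 in log2 change with 1 library left out, changing sign without vcS5 replicate 2.

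List counts moved with the replicate block, to 2 falls among signalling partners, 1 fall each among NK, plasmacytoid dendritic cell and monocyte markers, 0 falls among NKT markers and 1 rise among gamma delta markers. At a mean FPKM of at least 5 there were 0 falls among other lectin receptors and 1 rise among gamma delta markers. H2-D1 changed sign with quantile normalization, to -0.14. With 1 library left out, rises numbered 0 to 0 among signalling partners and NKT markers, 0 to 1 among other lectin receptors and transcription factors, 0 to 2 among NK markers, 0 to 4 among CD8 markers, 0 to 7 among memory markers, 0 to 0 among plasmacytoid dendritic cell markers and 1 to 1 among gamma delta markers. Falls numbered 0 to 0 among signalling partners, other lectin receptors, NKT and plasmacytoid dendritic cell markers, 1 to 1 among NK markers, 0 to 1 among gamma delta and B cell markers and 0 to 2 among monocyte markers. With 3 libraries the lone sample of a group is assumed to vary like the other group. The cause of these moves was not tested, apart from fewer rows or libraries in the fit.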
